A study of Mus musculus with 9 samples.

Results

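The acute phase protein genes described here are Lcn2, Saa1, Saa2, Saa3, Hp, Orm1, Orm2, Cp, Hpx and Itih4, picked by gene symbol from a mouse pancreas mRNA table of 17132 genes, and all 10 were listed in it. After the filter on low counts 8 of them were among the 12828 genes tested, and Orm2 and Hpx were not. All animals were wild-type C57BL/6 mice, 3 per group. Control mice (libraries 43, 44 and 45) had 7 hourly intraperitoneal injections of saline. Model mice (56, 57 and 59) had caerulein at the same times, at a labelled 50 mg/kg, with lipopolysaccharide (LPS, a bacterial cell wall component) at the last one. Caerulein is a cholecystokinin analogue that overstimulates the enzyme-secreting acinar cells. QYD mice (65, 66 and 68) had the same caerulein and LPS plus Qingyi Decoction, a Chinese herbal preparation, at 0 and 8 h. Control and Model mice had saline in its place, and the pancreas was taken at 24 h. Age is not given in the labels. The 6 Model and QYD libraries are called injured below.

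Acute phase proteins are plasma proteins whose level rises or falls during inflammation. The liver makes most of them. Interleukin 6 and its relatives signal through STAT3 to their genes, and interleukin 1 and tumour necrosis factor through NF-kB and C/EBP factors. In mice Saa1 and Saa2 are typical liver products, while Saa3 and Lcn2 are also made by epithelia, macrophages and neutrophils. Lcn2, lipocalin 2, binds the bacterial siderophores that capture iron. The serum amyloid A proteins travel on high density lipoprotein. Haptoglobin (Hp) binds free haemoglobin, hemopexin (Hpx) binds free haem, and ceruloplasmin (Cp) carries copper and oxidises iron. Orm1 and Orm2 encode orosomucoids, plasma glycoproteins that bind small molecules. Itih4 encodes a heavy chain of the inter-alpha-trypsin inhibitor family.

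Libraries held 19112923 to 20212744 estimated counts, and levels are given as CPM, a gene's counts scaled to library size, on the TMM scale, which aligns libraries on their typical gene. Acinar transcripts took much of the Control libraries, and scaling by library totals instead of TMM moved the median log2 fold change of Model against Control up by 2.15. The defining acinar markers, such as Cpa1 and Cela1, were abundant in every library. All 12 tested acinar markers were lower in Model than in Control (10 lower and 2 higher on library totals). Over all tested genes 21.3% were lower, and 0.943% on library totals. Control 45 stood apart from the other Control libraries. Its summed neutrophil markers were at 50.2 CPM against 19.7 and 11.2 in Control 43 and 44, and values that move with it are also given without it. In bulk tissue, fewer cells of a type and less RNA per cell cannot be told apart.

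Promoter windows, from 250 bases before to 50 bases after a start site, were found for 8 of the 10 genes (RefSeq, GRCm38.p6). Cp had 2 windows, and Hp and Orm1 had none. In Saa1, Saa3 and Cp the start site of the window lay inside the gene range given below, not at its end. Distances to the start are counted from the start site of the window. The first 4 below are shown because these genes stand for both patterns of the lipocalin and serum amyloid group, and Itih4 because its level went the other way. Each is printed 5′ to 3′ on the gene's strand, and capitals mark a match to a searched motif. Lcn2 is chr2:32387690-32387989 (minus strand), Saa3 chr7:46715627-46715926 (minus), Saa1 chr7:46742931-46743230 (minus), Saa2 chr7:46751583-46751882 (plus) and Itih4 chr14:30886226-30886525 (plus).
Lcn2: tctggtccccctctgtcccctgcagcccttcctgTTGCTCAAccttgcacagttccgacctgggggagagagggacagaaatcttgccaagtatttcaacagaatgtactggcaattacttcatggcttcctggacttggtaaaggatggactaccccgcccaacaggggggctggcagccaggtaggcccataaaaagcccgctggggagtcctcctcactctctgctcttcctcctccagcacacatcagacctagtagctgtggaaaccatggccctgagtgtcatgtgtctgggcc
Saa3: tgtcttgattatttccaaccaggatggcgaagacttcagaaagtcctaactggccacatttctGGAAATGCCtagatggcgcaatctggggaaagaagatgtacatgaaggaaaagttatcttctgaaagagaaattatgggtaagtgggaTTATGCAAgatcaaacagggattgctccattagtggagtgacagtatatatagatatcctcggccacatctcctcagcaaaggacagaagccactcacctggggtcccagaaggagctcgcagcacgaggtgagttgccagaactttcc
Saa1: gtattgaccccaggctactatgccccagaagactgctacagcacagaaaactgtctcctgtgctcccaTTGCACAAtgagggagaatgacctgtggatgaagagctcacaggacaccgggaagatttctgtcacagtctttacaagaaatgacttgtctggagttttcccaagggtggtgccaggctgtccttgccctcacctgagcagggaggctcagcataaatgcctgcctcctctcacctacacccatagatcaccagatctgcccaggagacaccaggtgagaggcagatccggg
Saa2: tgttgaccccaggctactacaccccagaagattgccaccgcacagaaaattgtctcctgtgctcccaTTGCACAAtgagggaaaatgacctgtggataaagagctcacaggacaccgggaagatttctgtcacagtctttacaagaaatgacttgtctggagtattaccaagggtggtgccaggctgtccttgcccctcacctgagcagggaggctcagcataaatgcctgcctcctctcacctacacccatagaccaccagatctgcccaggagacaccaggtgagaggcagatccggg
Itih4: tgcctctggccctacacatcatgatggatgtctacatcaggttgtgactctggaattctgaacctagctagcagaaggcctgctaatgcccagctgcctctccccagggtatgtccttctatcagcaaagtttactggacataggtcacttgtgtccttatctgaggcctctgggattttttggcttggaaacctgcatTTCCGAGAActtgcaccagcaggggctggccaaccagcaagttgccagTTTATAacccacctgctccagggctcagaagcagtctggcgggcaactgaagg
Motifs were searched on both strands as TTGCNNAA (C/EBP), TTCNNNGAA (STAT), GGNNNTTCC (NF-kB) and TATAAA (the core promoter box). No matches to different motifs overlapped. TTGCNNAA occurred in 7 of the 8 genes with a window and in 10.8% of the 32851 promoter windows of that length. It lay 216 bases before the start in Lcn2, 99 before it in Saa3 (on the other strand), 182 in Saa1 and 183 in Saa2. Orm2, Hpx and the second Cp window also held it, and Itih4 did not. TTCNNNGAA occurred only in Itih4 among the 8, 51 bases before the start, and in 8.3% of all windows. TATAAA occurred in Cp, Itih4 and Orm2 and in 13.6% of all windows, and GGNNNTTCC in Cp and Saa3 (187 bases before its start, on the other strand) and in 18.5% of all. TATAAA lay 33 bases before the start in Orm2 and 25 in the second Cp window, which also held it on the other strand. In Itih4 it lay 3 bases before the start and on the other strand only. The stricter NF-kB form searched first, with 1 further G in front of these letters, matched none of the 8 genes and 5.56% of all windows. The Saa1 and Saa2 windows matched at 287 of 301 aligned positions (95.3%), while Saa1 and Saa3 matched at 50.1%. A match of letters is a description, not a measured site of binding.

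The first comparison, Model versus Control, shows what caerulein with LPS went along with in these genes. Lcn2, Saa3, Orm1 and Cp were higher and Itih4 was lower, while Saa1, Saa2 and Hp did not pass (edgeR quasi-likelihood test, Benjamini-Hochberg adjusted p under 0.05 over all tested genes). Thus 4 of 8 tested members were higher and 1 was lower, where 42.6% of all tested genes were called, 21.3% higher and 21.3% lower. In 6 of the 8 every Model library lay above every Control library and in 1 below, against 27.4% and 24.9% of all tested genes. The median log2 fold change of the 8 was 2.02, against 0.04 over all genes. Saa1, Saa2 and Orm1 had at most 17 counts in a Control library and passed the filter through the injured libraries, so these counts describe the members and are no support for a direction.

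Lcn2 (chromosome 2, 32384637 to 32387739, GRCm38.p6) dominated the group. Its level was 37.9, 50.3 and 744 CPM in Control 43, 44 and 45, then 2218, 3180 and 3498 CPM in Model 56, 57 and 59, and 2961, 3042 and 3059 CPM in QYD 65, 66 and 68. The injured libraries all lay above every Control library, and Control 45 lay far above the other Control libraries. The fold was 10.7 in Model versus Control, a log2 fold change of 3.42 ± 0.92 (SE, n = 3 per group, edgeR adjusted p = 0.0117). Without Control 45 the log2 fold change was 6.07 ± 0.28.

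Per unit of length, Lcn2 came close to 1 digestive enzyme, Cpa1, after injury, but not to Cela1. Its FPKM, counts scaled to gene length and library size, was 18.8, 27.0 and 406 in the Control libraries, 5569 to 7623 in Model and 5805 to 7342 in QYD. Cpa1, the acinar carboxypeptidase A1, had 15765 to 21524 FPKM in Control, 8193 to 9684 in Model and 7161 to 8062 in QYD. Cela1, an acinar elastase, stayed far above Lcn2, with 24731 to 26442 FPKM in Model and 21147 to 24372 in QYD. By FPKM Lcn2 ranked 478.5 (a tie), 372 and 69 among all genes in Control 43, 44 and 45, and 21 to 26 in the injured libraries. Lcn2 supplied 20.2%, 22.0% and 74.6% of the members' counts in the Control libraries and 80.5% to 88.1% in the injured ones. Among the 10 members it had the highest FPKM in every library.

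Saa3 (chromosome 7, 46711998 to 46719615) was also highest in the injured libraries and, among Control, in Control 45, at a lower level. Its CPM was 7.13, 7.38 and 107 in Control, 285, 434 and 318 in Model and 418, 427 and 288 in QYD. The groups of injured libraries overlapped each other and lay above all Control libraries. Model exceeded Control 8.50-fold, a log2 fold change of 3.09 ± 0.83 (SE, n = 3, edgeR adjusted p = 0.0115), and by 5.57 ± 0.30 without Control 45. Saa3 was second by FPKM in all injured libraries and in Control 45, where Itih4 was second in Control 43 and 44.

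Saa1 (chromosome 7, 46740497 to 46743181) and Saa2 (chromosome 7, 46751833 to 46754313) were scarce. Saa1 had 0, 1 and 17 counts in Control, 50, 177 and 65 in Model and 275, 117 and 50 in QYD. In CPM these were 0, 0.127 and 2.16 in Control, 1.43, 5.27 and 2.24 in Model and 8.04, 3.92 and 1.86 in QYD. Control 45 overlapped both injured groups. The Model versus Control log2 fold change of Saa1 was 1.92 ± 0.96 (SE, n = 3, edgeR adjusted p = 0.131), and without Control 45 it passed with 5.39 (edgeR adjusted p = 0.0265), on 1 remaining Control count.

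Saa2 had 0, 0 and 2 counts in Control, 15, 86 and 29 in Model and 221, 92 and 29 in QYD. Its CPM was 0.429, 2.56 and 1.00 in Model and 6.46, 3.08 and 1.08 in QYD, and every injured library exceeded every Control library. Pooled over libraries, the rate in Model was 15.2 times that in Control, with an exact 95% interval of 4.14 to 127 that covers counting error only. The edgeR fold change in Model versus Control did not pass (log2 fold change 3.85 ± 1.51 SE, n = 3, adjusted p = 0.0606), and this fitted value leans on 2 Control counts, both from Control 45. Without that library the fitted value was 8.09, against 0 counts in Control, and did not pass (edgeR adjusted p = 0.0967). It passed in the same comparison without Model 56, QYD 65 or QYD 68 (edgeR adjusted p = 0.0308, 0.0350 and 0.0347), and in DESeq2 (adjusted p = 0.00658). Of the 50-base stretches of Saa1 transcripts 68.5% were unique to the gene and of Saa2 70.0%, so the division of reads between them is uncertain, although all counts of the 10 members were whole numbers.

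The haem and iron proteins gave 1 clear call. Cp (chromosome 3, 19956933 to 20009750) was at 22.9, 21.5 and 45.6 CPM in Control, 118, 127 and 106 in Model and 133, 116 and 166 in QYD. Injured and Control libraries did not overlap. The log2 fold change in Model versus Control was 1.96 ± 0.26 (SE, n = 3, edgeR adjusted p = 0.000221), a 3.90-fold difference, and without Control 45 it was 2.40 ± 0.19.

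Hp (chromosome 8, 109575128 to 109579172) varied more within groups than between Model and Control. It was at 22.4, 9.55 and 23.6 CPM in Control, 36.7, 95.7 and 24.3 in Model and 140, 71.7 and 37.1 in QYD. Model 59 lay just above Control 45, so the groups did not overlap, and the log2 fold change of 1.50 ± 0.58 (SE, n = 3) did not pass (edgeR adjusted p = 0.0567). It passed without Model 59, with 1.84 (edgeR adjusted p = 0.0252), and without QYD 65 or QYD 68, with 1.50 and 1.51 (edgeR adjusted p = 0.0427 and 0.0382). Without Control 45 it was at 1.72 and did not pass (edgeR adjusted p = 0.0803).

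Hpx (chromosome 7, 105591611 to 105600116) was near the limit of detection, with 0, 1 and 1 counts in Control, 2, 4 and 8 in Model and 0, 7 and 1 in QYD. It was not tested. The pooled rate in Model was 1.64 times that in Control (exact 95% interval 0.377 to 14.9, counting error only), so no difference was detectable at this depth.

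Of the orosomucoids, Orm1 rose from a low level and Orm2 was hardly detected. Orm1 (chromosome 4, 63344556 to 63348163) had 3, 3 and 2 counts in Control, 56, 63 and 28 in Model and 51, 37 and 64 in QYD. In CPM this was 0.419, 0.382 and 0.254, then 1.60, 1.87 and 0.965, then 1.49, 1.24 and 2.38, with all injured libraries above all Control libraries. The log2 fold change in Model versus Control was 2.07 ± 0.49 (SE, n = 3, edgeR adjusted p = 0.00629), and 1.88 without Control 45 (edgeR adjusted p = 0.0279). At 3, 3 and 2 counts the Control libraries cannot be ranked by Orm1, and Control 45 did not stand out there as it did in Lcn2 and Saa3.

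Orm2 (chromosome 4, 63362449 to 63365877) had 0 counts in every Control library, 0, 4 and 2 in Model and 4, 3 and 1 in QYD. A count of 0 allows up to 0.381 to 0.419 CPM in a Control library (3 counts), above the 0.0627 ± 0.0598 CPM of Model (SD, n = 3), and no fold is given. Orm1 and Orm2 transcripts matched at 91.0% of aligned positions, and 79.6% and 77.3% of their 50-base stretches were unique.

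Itih4 (chromosome 14, 30886476 to 30901986) went down relative to the typical gene. It was at 96.7, 140 and 74.5 CPM in Control, 18.4, 20.5 and 20.4 in Model and 10.4, 21.8 and 15.5 in QYD, with every injured library below every Control library. Model lay 5.24-fold below Control, a log2 fold change of -2.39 ± 0.27 (SE, n = 3, edgeR adjusted p = 8.64e-05). On library totals alone the change was -0.24 and did not pass (edgeR adjusted p = 0.352), and the FPKM ranges overlapped, with 9.74 to 17.9 in Control and 10.2 to 11.8 in Model. Itih4 therefore held nearly its share of all counts while the median gene gained. Scaled that way 94% of all tested genes were called higher, and 7 of the 8 members were.

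**Figure D1:**
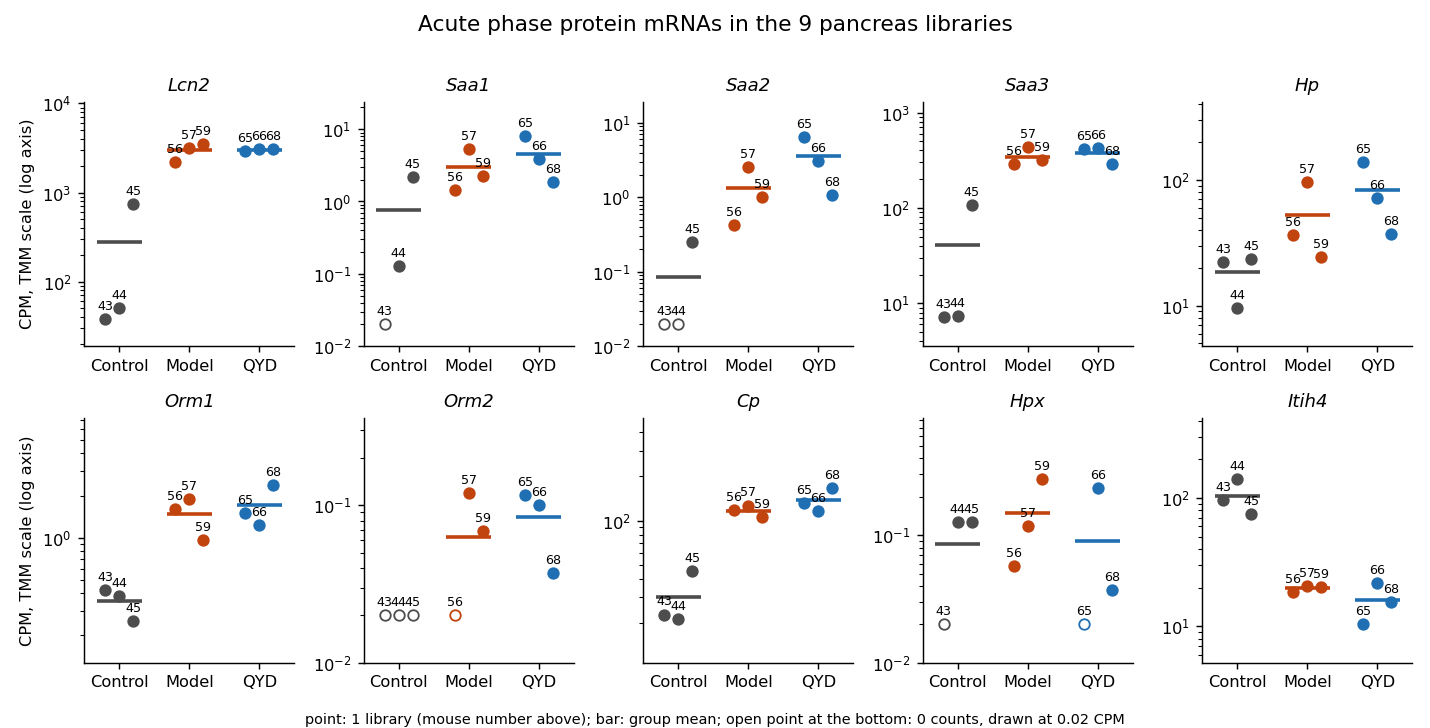
CPM on the TMM scale (log axis) of each acute phase gene in the 9 libraries, grouped as Control, Model and QYD on the x axis, with 1 point per library labelled by mouse number and a bar at the group mean. Lcn2 and Saa3 in Control 45 (744 and 107 CPM) lie between the other Control libraries and the injured ones, and Itih4 lies lower in all 6 injured libraries.

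**Figure D2:**
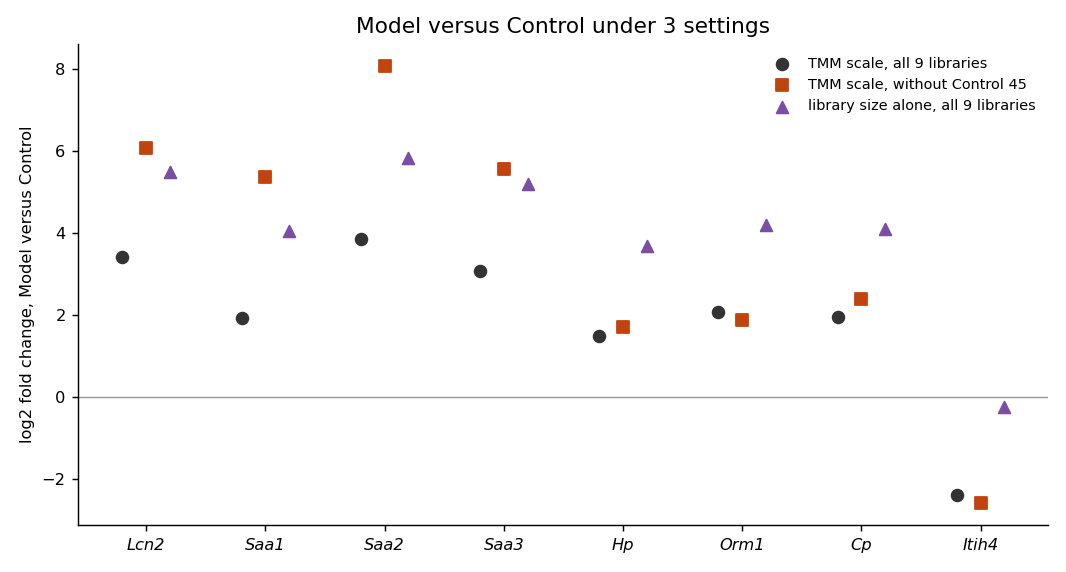
Log2 fold change in Model versus Control (y axis) of the 8 tested genes (x axis) on the TMM scale, on the TMM scale without Control 45, and on library size alone. Leaving out Control 45 raises Lcn2 from 3.42 to 6.07 and Saa3 from 3.09 to 5.57, and library size alone brings Itih4 from -2.39 to -0.24.

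The second comparison, QYD versus Model, asks what the decoction changed in injured mice. None of the 8 tested members passed, and none of the 12828 tested genes did (0% called). At an unadjusted p under 0.05 there were 750 genes, none of them a member, and DESeq2 called no member either. Summed over the 10 members, the level was 3506 ± 718 CPM in Model and 3646 ± 64.0 CPM in QYD (SD, n = 3).

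Lcn2 differed by a log2 fold change of 0.027 ± 0.83 (SE, n = 3), with a 95% interval of -1.81 to 1.86 that Control 45 helped to widen, since all groups shared 1 estimate of spread. Without Control 45 its SE was 0.19. Saa3 differed by 0.13 (interval -1.53 to 1.78), Cp by 0.24 (-0.30 to 0.78), Orm1 by 0.19 (-0.51 to 0.88) and Itih4 by -0.31 (-0.90 to 0.27). These intervals do not show that the decoction left the genes alike, and a doubling lies inside those of Lcn2 and Saa3.

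The estimates for the more variable genes were 0.67 for Hp (interval -0.52 to 1.85), 0.64 for Saa1 (-0.76 to 2.04) and 1.42 for Saa2 (-0.01 to 2.85). Saa2 came nearest to a difference, with an unadjusted p of 0.0510 and an edgeR adjusted p of 0.826. Its pooled rate in QYD was 2.82 times that in Model (exact 95% interval 2.30 to 3.48, counting error only), but QYD 68 and Model 59 had 29 counts each, so the groups overlapped. No member was apart between QYD and Model, where 8.56% of all tested genes had QYD wholly above Model and 8.17% wholly below.

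The third comparison, QYD versus Control, shares its Control libraries with the first. Here 7 of the 8 tested members were higher and 1 was lower, where 40.7% of all tested genes were called (20.5% higher, 20.3% lower). The libraries of the groups did not overlap in 6 members with QYD above and 1 with QYD below, against 27.8% and 24.7% of all tested genes. Lcn2 was higher by 3.44 ± 0.92 (SE, n = 3, edgeR adjusted p = 0.0119), Saa3 by 3.22 ± 0.83, Cp by 2.20 ± 0.26 and Orm1 by 2.26 ± 0.49. Without Control 45, Lcn2 was higher by 6.10 and Saa3 by 5.70. Itih4 was lower, with a log2 fold change of -2.70 ± 0.28 (edgeR adjusted p = 5.39e-05), and on library totals alone it still passed at -0.69 (edgeR adjusted p = 0.0162).

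Hp, Saa1 and Saa2 passed against Control in QYD and not in Model, a split that depends on the processing. Their log2 fold changes in QYD versus Control were 2.17 ± 0.59, 2.56 ± 0.93 and 5.27 ± 1.33 (SE, n = 3, edgeR adjusted p = 0.0127, 0.0473 and 0.00894). The direct comparison of QYD with Model, given above, passed for none of them. Hp no longer passed without QYD 65 or Control 44, with 1.56 and 1.85 (edgeR adjusted p = 0.0551 and 0.0574). Saa1 no longer passed without Control 43, Control 44, Model 59, QYD 65 or QYD 66 (edgeR adjusted p between 0.0555 and 0.159). Without Control 45, Saa1 was at 6.03 and Saa2 at 9.51, fitted values against 1 and 0 Control counts. DESeq2 did not call Saa1 (adjusted p = 0.105), and limma-voom with sample weights called neither Saa1 nor Saa2. In Model versus Control, Hp and Saa2 passed when low counts were not filtered and when the QYD libraries were kept out of the fit, and Saa2 passed in DESeq2.

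**Figure D3:**
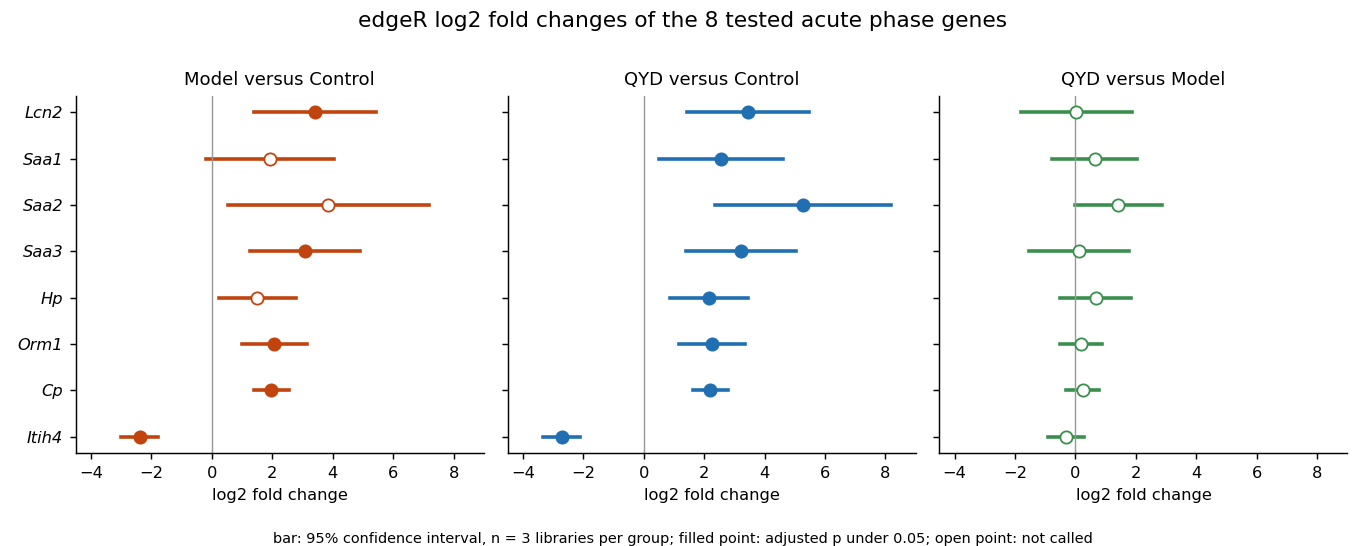
edgeR log2 fold changes (x axis) with 95% confidence intervals for the 8 tested genes in the 3 comparisons, with filled points for an adjusted p under 0.05. In QYD versus Model all intervals include 0, and the narrowest are those of Cp and Itih4.

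Within the injured mice the members fell into steady and variable genes. The highest of the 6 injured libraries exceeded the lowest 1.52-fold for Saa3, 1.56-fold for Cp and 1.58-fold for Lcn2. For Itih4 and Orm1 it was 2.10-fold and 2.47-fold. Saa1, Hp and Saa2 spread over 5.62-fold, 5.75-fold and 15.0-fold.

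The 3 variable genes were highest in the same 3 libraries, QYD 65, Model 57 and QYD 66, which come from both groups. Saa3 was highest in these 3 as well, over its narrower range, with 418, 434 and 427 CPM against 285 to 318 CPM in the others. The same 3 libraries were highest in the summed level of the 11 adipocyte markers, with 152, 118 and 119 CPM against 56.2 to 83.1 CPM in the other injured libraries. Cfd, adipsin, had 1418, 957 and 640 counts in QYD 65, Model 57 and QYD 66, and 53 to 151 in the others. Adipoq, adiponectin, had 80, 78 and 48 counts there and 3 to 24 in the others. The macrophage list followed (14 markers, 196 to 239 CPM against 110 to 151), and within it Marco had 297 to 483 counts against 40 to 48. So did the fibroblast and stellate cell list (8 markers, 368 to 479 CPM against 267 to 343). The mesothelial list did too, by less (8 markers, 10.7 to 15.1 CPM against 6.07 to 10.4). Not every gene of these lists split this way. Lipe was at 13.6 CPM in Model 59 and at 10.8 and 10.0 in QYD 65 and 66. Plin4 and Fabp4 were higher in QYD 68 (16.0 and 53.9 CPM) than in Model 57 (13.9 and 50.3). Mrc1 and Ly6c2 were higher in QYD 68 (7.67 and 11.2 CPM) than in QYD 65 (5.76 and 9.09). Pdgfra and Msln were higher in Model 56 (11.8 and 3.12 CPM) than in QYD 66 (9.78 and 2.38). A list of 8 B cell genes, added after the data were seen, stood at 12.6 to 22.4 CPM in these 3 libraries and at 0.715 to 1.19 CPM in the other injured ones. In Control the adipocyte list was at 303, 180 and 68.5 CPM in libraries 43, 44 and 45, where Hp was at 22.4, 9.55 and 23.6 CPM. The part of these cell type markers in the levels of Hp, Saa1, Saa2 and Saa3 was not tested.

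**Figure D4:**
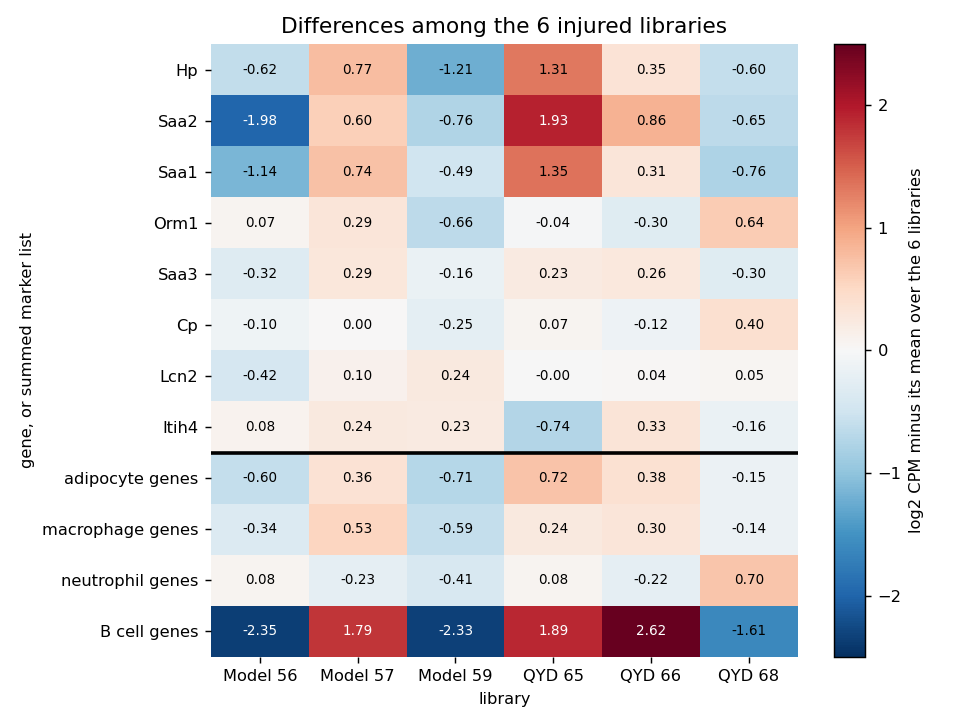
Log2 CPM minus its mean over the 6 injured libraries (colour and number) for the 8 tested acute phase genes and, under the line, for the summed levels of 4 marker lists; columns are libraries. Hp, Saa1, Saa2 and, by less, Saa3 are above their means in Model 57, QYD 65 and QYD 66, as are the adipocyte, macrophage and B cell lists, while Lcn2 stays between -0.42 and 0.24.

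Neutrophil markers moved with the Lcn2 and Saa3 rise. The summed level of 18 neutrophil genes was 11.2 to 50.2 CPM in Control, 158 to 221 in Model and 180 to 340 in QYD. In Model versus Control 14 of 16 tested ones were higher, where 21.3% of all tested genes were. Cxcr2 had 3, 0 and 12 Control counts and Ly6g 1, 1 and 2. These and most others of the list passed the filter through the injured libraries, so the count is no support for a direction. S100a8, S100a9 and Ngp had at least 12 counts in each Control library. The defining genes S100a8 and S100a9 had FPKM of 164 to 295 and 144 to 296 in Model, below the 5569 to 7623 FPKM of Lcn2 in the same libraries. Among injured libraries the neutrophil list was highest in QYD 68 (340 CPM) and lowest in Model 59 (158 CPM), while Lcn2 was highest in Model 59. Single markers of the list differed in this. S100a8, S100a9 and Ngp were lowest in Model 59 (28.7, 37.4 and 11.3 CPM). Ltf was highest there, with 17.6 CPM against 2.41 to 7.41 CPM in the other injured libraries. The summed level of 8 duct epithelium markers was higher after injury too, at 261 to 338 CPM in Control, 572 to 896 in Model and 451 to 763 in QYD. In Model versus Control 4 of these 8 were higher and 1 lower, against 21.3% of all tested genes each way. On library totals 7 were higher and none lower, where 94% of all tested genes were higher. The part of neutrophils and of duct cells in the Lcn2 and Saa3 levels was not tested.

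Some hepatocyte markers were hardly present, while others had counts in every library. Alb (albumin) had 3 to 11 counts in Control and 0 to 9 in the injured libraries, and Apob, Cps1 and Serpina1c had at most 2 in any library. Ahsg (fetuin A) had 1 to 5 counts in Control and 36 to 173 in the injured libraries. F2 had 22 to 27 and 23 to 54, and Ambp 5 to 20 and 21 to 57. The summed level of the 11 markers listed was 23.4 to 28.2 CPM in Control and 5.84 to 12.1 CPM in the injured libraries, most of it Ttr in Control. Only 4 of the 11 could be tested, with 1 higher (Ahsg) and 2 lower in Model versus Control, and 2 higher and 1 lower on library totals. The call of Ahsg is no support for a direction, since it passed the filter through the injured libraries. Over all tested genes 21.3% were called each way, and 94% were higher on library totals.

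Other acute phase genes that inflammation raises moved with the members. In Model versus Control 17 of 23 tested genes of this list were higher and none was lower, against 21.3% of all tested genes each way. The median log2 fold change was 2.42 against 0.04 over all genes. On library totals alone all 23 were higher, where 94% of all tested genes were. In QYD versus Control 14 were higher and 1, the complement gene C4b, was lower (-1.08), against 20.5% and 20.3% of all tested genes. Hamp, which encodes the iron hormone hepcidin, went from 0.771 ± 1.10 CPM in Control to 9.47 ± 1.31 in Model (SD, n = 3). The log2 fold change was 3.58 ± 0.52 (SE, edgeR adjusted p = 0.000351), and 6.10 without Control 45, which held 16 of the 18 Control counts. Lrg1, a leucine-rich glycoprotein, rose by 2.45 ± 0.46 to 335 ± 136 CPM, and Cd14, an LPS co-receptor, by 2.87 ± 0.48 to 109 ± 8.59 CPM. Without Control 45 these were 3.12 and 4.01. Ptx3, a pentraxin, rose by 2.85 and Steap4, a metalloreductase, by 1.70. Hamp, with 2, 0 and 16 Control counts, and Ptx3, with 26, 1 and 31, passed the filter through the injured libraries. Their calls are no support for a direction, and the count of 17 includes them. Crp, the C-reactive protein gene, had 1.42 CPM in Model and 0.945 in Control and did not pass.

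Genes known to fall in the liver during inflammation were mixed, with 3 lower and 1 higher of 6 tested and a median of -0.98. The share over all tested genes was 21.3% each way. On library totals alone 1 was lower and 4 were higher, with a median of 1.16, where 94% of all tested genes were higher. Ttr, the thyroxine carrier transthyretin, which islets also make, fell by 2.69 on the log2 scale and Igf1 by 1.77. On library totals alone Ttr was at -0.53 and Igf1 at 0.38, so the direction of Igf1 turns with the scaling. Ahsg, fetuin A, which falls in liver inflammation, had 1, 3 and 5 counts in Control and 81, 84 and 173 in Model (log2 fold change 3.17 ± 0.81 SE, edgeR adjusted p = 0.00890). Ahsg passed the filter through the injured libraries, so its call is no support for a direction. Trf, transferrin (-0.26), and Gc, the vitamin D carrier (-0.64), did not pass.

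The cytokines that induce these genes were low and higher after injury. Of 12 listed only 6 could be tested, and 4 were higher in Model versus Control and none lower, with a median of 2.78. The share over all tested genes was 21.3% each way. On library totals 6 were higher, where 94% of all tested genes were. Il1b had 2, 1 and 11 counts in Control, 292, 256 and 181 in Model and 339, 226 and 481 in QYD, a log2 fold change of 3.59 ± 0.56 (SE, n = 3, edgeR adjusted p = 0.000546) in Model versus Control. Lif, an interleukin 6 relative, rose by 4.32 ± 0.56, Csf3, the granulocyte growth factor, by 2.81 and Tnf by 2.37. Lif had 1, 1 and 2 Control counts, Csf3 9, 1 and 17, and Tnf 2, 1 and 6. Il1b, Lif, Csf3 and Tnf thus passed the filter through the injured libraries, and their calls are no support for a direction. Without Control 45, Il1b was at 5.18, Csf3 at 3.63 and Tnf at 3.33. Il6 itself had 3, 0 and 1 counts in Control, 74, 35 and 12 in Model and 31, 24 and 69 in QYD, and its log2 fold change of 2.74 in Model versus Control just missed the threshold (edgeR adjusted p = 0.0552).

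Of 12 cytokine receptor genes 6 were higher and 3 lower in Model versus Control, against 21.3% of all tested genes each way. By library totals 12 were higher and none lower, where 94% of all tested genes were higher. Osmr, the oncostatin M receptor, rose by 2.22 ± 0.28 from 8.76 ± 4.80 to 40.8 ± 1.58 CPM. The tumour necrosis factor receptors Tnfrsf1a and Tnfrsf1b rose by 1.06 and 1.83 and the interleukin 17 receptor Il17ra by 0.86. Lifr, the receptor for Lif, was at -0.93 and Il11ra1 at -1.48, and both were higher on library totals alone (1.22 and 0.66).

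Among 16 transcription factors and feedback genes of the pathway 10 were higher and 4 lower in Model versus Control, with a median of 0.89. Over all tested genes 21.3% were called each way. Scaled by library totals, 15 were higher and none lower, with a median of 3.04, where 94% of all tested genes were higher. Stat3 rose by 1.08 ± 0.14 from 41.0 ± 6.50 to 86.8 ± 9.02 CPM, and its feedback inhibitor Socs3 by 2.58 ± 0.34 (3.20 without Control 45). Cebpd, a C/EBP factor, rose by 1.81 ± 0.29, Bcl3, a nuclear partner of NF-kB, by 2.53 and Nfkbia, the NF-kB inhibitor, by 0.99. Bcl3, with 10, 4 and 14 Control counts, passed the filter through the injured libraries, so its call is no support for a direction. Foxa3, a factor of liver and gut epithelium, was lower at -2.04, and at 0.12 on library totals alone, where it did not pass.

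Of 14 tested receptors and partners of the members 7 were higher and 2 lower, against 21.3% of all tested genes each way. On library totals alone 13 were higher and none lower, where 94% of all tested genes were higher. Fpr2, a receptor for serum amyloid A, rose by 2.88 ± 0.53 and Tlr2 by 1.77 ± 0.26. Without Control 45, Fpr2 was at 5.11, Mmp9 at 3.44 and Hmox1 at 2.46. Mmp9, the protease that Lcn2 binds, rose by 2.37 and Hmox1, the enzyme that degrades haem, by 1.82. Fpr2 had 3, 1 and 25 Control counts and Mmp9 9, 5 and 31. Both passed the filter through the injured libraries, and their calls are no support for a direction. Slc22a17, described as a receptor for Lcn2, was lower at -1.53 ± 0.37, but on library totals alone it was at 0.58 and did not pass. Among related inter-alpha-trypsin inhibitor and lipocalin genes 4 of 5 were lower and none higher, against 21.3% of all tested genes each way. On library totals alone 2 were higher and none lower, where 94% of all tested genes were higher. Itih2 was at -1.87 ± 0.21 and Itih5 at -1.96 ± 0.32, near the -2.39 of Itih4, and Apod at -0.97. Ambp, which encodes the light chain bikunin, was at -0.28 and did not pass. On library totals alone Itih2, Itih5 and Apod were at 0.27, 0.20 and 1.15. No gene of these lists passed in QYD versus Model.

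**Figure D5:**
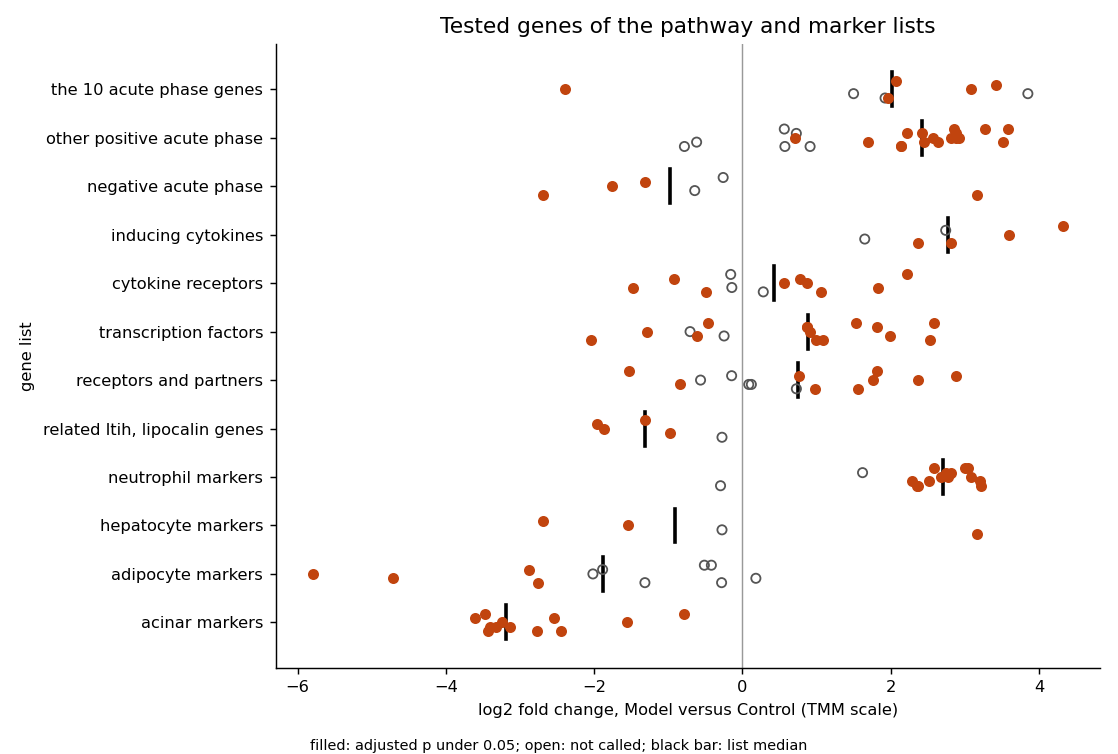
Log2 fold change in Model versus Control (x axis) of every tested gene in 12 lists (y axis), with filled points for an edgeR adjusted p under 0.05 and a black bar at the list median. The neutrophil and other positive acute phase lists have medians of 2.71 and 2.42, and the acinar list one of -3.19.

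Genes most like each member were found over the 9 libraries by the root-mean-square distance between log2 CPM profiles, each centred on its own mean, among 10963 candidates. Saa3 was nearest to Timp1 (0.26), Clec4e (0.36) and Nos2 (0.37), and Lcn2 to Chil1 (0.37), Fut2 (0.38) and Timp1 (0.44). The distance between Lcn2 and Saa3 was 0.31. Cp was nearest to Fxyd5 (0.12), Irak3 (0.17) and Ikbke (0.17), and Orm1 to Pilrb1 (0.15), Fgd3 (0.25) and Nfam1 (0.28). Hp was nearest to Uhrf1 (0.29), Mki67 (0.36) and Ikzf1 (0.44), the first 2 being genes of dividing cells. Itih4 was nearest to Pde8b (0.21), Sybu (0.27) and Cela1 (0.28), an acinar elastase. No gene lay as close to Saa1 or Saa2, whose nearest were Pigr (0.60), Vnn3 (0.66) and Serpina3n (0.69), and Ubd (0.71), Cxcl9 (0.74) and Pigr (0.82). The profiles share libraries and depth, and the distances describe these libraries only.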

How the data were processed

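Polyadenylated RNA of 9 mouse pancreases was sequenced. Per the submitters' processing notes the tools were HISAT2 2.0.4, Bowtie2 2.2.5 and RSEM 1.2.12, on build GRCm38.p6. Their roles, and whether strand was used in counting, are not given in those notes. Values deposited by the authors are read counts, taken here as RSEM's estimated counts (93.5% were whole), and FPKM per gene and library. The deposited TPM values and 18 columns of the authors' group means were not used.

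The main test was edgeR 4.0.16 (R 4.3.3) on rounded estimated counts, with TMM, the default expression filter and 1 quasi-likelihood fit of group over the 9 libraries (6 residual degrees of freedom). Benjamini-Hochberg adjustment covered 12828 genes, and an adjusted p under 0.05 was a call. The NF-kB letters searched in promoters were shortened by 1 base after the longer form had been searched, and both results are given. The standard error is the log2 fold change divided by the square root of F. FPKM served to compare genes. With 19112923 to 20212744 counts per library, 1 count was worth 0.127 to 0.140 CPM in Control. No replicate pair agreed within sampling noise. Intervals on pooled counts are exact and cover counting error only. The fit was tested on simulated data.

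All members were named, then up to 6 genes per list with the smallest p in Model versus Control and a mean of at least 1 CPM, and for each tested member of that level the 3 nearest genes. Some genes that this rule names are not reported here. C4b, Crp, Il6, Cpa1 and the cell type markers were named after their values were seen. The members, lists and rules were chosen with earlier results of these data known. Alternatives were RLE scaling, library size alone, TMM without the 50 most abundant genes, no filter, a minimum of 5 CPM in 3 libraries, limma 3.58.1 (on log2(FPKM + 1) or log2(FPKM + 0.1), or voom with weights), DESeq2 1.42.0, only the compared groups, an adjusted p of 0.1, and each library left out in turn.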

Additional observations from a re-analysis of the deposited data

How the results depend on the processing

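No paired analysis was possible because the groups share no replicate numbers. Model versus Control called 7 members higher and 0 lower on library size alone and in the 3 limma fits on log2 FPKM, all of which leave out the TMM factors. It called 6 higher and 1 lower with no low-count filter, with only the compared groups and at an adjusted p of 0.1, all of which keep TMM, and 4 to 6 higher with 1 library left out. QYD versus Control called 4 members higher with DESeq2, which gave no p for Lcn2 and Saa3 and did not pass Saa1, and 5 with limma-voom, which did not pass Saa1 and Saa2; the cause was not tested. The summed level of the members on library size alone was 5889 CPM in Model and 5703 in QYD. In QYD versus Model, where no alternative called a member, the sign of Lcn2 turned to -0.077 on library size alone and to -0.055 in each limma fit on log2 FPKM. With 1 library left out, log2 fold changes in QYD versus Model ran from -0.14 to 0.16 for Lcn2, from -0.13 to 0.39 for Orm1, from -0.039 to 1.35 for Saa1, from 0.061 to 1.44 for Hp and from 0.65 to 2.34 for Saa2, the last 2 lowest without QYD 65 and highest without Model 57. No sign changed in 164 alternative values each for Model versus Control and QYD versus Control, in which 26 values newly passed and 4 no longer passed, and 0 and 10. Depth limits Saa1, Saa2, Orm1, Orm2 and Hpx, where 2 to 18 counts over the 3 Control libraries, or 0 for Orm2, set the comparison.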

Other observations

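Saa1 had 3.33, 2.06 and 2.24 times the counts of Saa2 in Model 56, 57 and 59, and 1.24, 1.27 and 1.72 times in QYD 65, 66 and 68. The means were 2.54 ± 0.69 and 1.41 ± 0.27 (SD, n = 3), and the groups did not overlap. The ratio was chosen after its values were seen, so its difference between groups is a description with no test. In Control 45 the ratio was 8.5, on 17 and 2 counts. Saa1 and Saa2 transcripts matched at 87.3% of aligned positions, and the part of read division between them was not tested.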
